A study of Zea mays with 9 samples.

Results

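Hemoglobin 1 (Zm00001d048020) and hemoglobin 2 (Zm00001d038718) are the non-symbiotic hemoglobins that the study lists among its genes of nitrogen transport and metabolism, and they are 2 of the 45260 identifiers in the expression table. They were taken by identifier. The study had placed them in its list because they passed its thresholds of significance and fold change in at least 1 comparison of these same libraries. Their levels are therefore given here as a description and not as a test of a response.

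Primary root apexes of the maize inbred line B73 were collected from seedlings germinated in the dark for 3 days and then moved to nutrient solution. In all groups, per the methods of the study, the seedlings first spent a period without nitrogen and the solutions were constantly aerated. The groups were then kept for 24 h without nitrogen (-N, the negative control), with 1 mM KNO3 (nitrate, +NO3) or with 1 mM NH4Cl (ammonium, +NH4), so that the accompanying potassium and chloride differed as well as the nitrogen form. Each group had 3 biological replicates (9 libraries), and a replicate pooled 10 to 15 plants by the record of the series, although the methods state a larger pool.

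The expression table holds 1 value per gene and condition, pooled over the 3 replicates, in RPKM (reads normalized to transcript length and library size). No value per replicate was used here, so the differences below have no standard deviation, no p-value and no replicate check, and the number of reads behind a value cannot be told from RPKM. In such bulk tissue, more cells of a type that expresses a gene and more RNA per cell cannot be told apart.

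Non-symbiotic hemoglobins, also called phytoglobins, are heme proteins found also in plants that form no nodules. They bind oxygen very tightly and therefore serve poorly as oxygen carriers. Their oxygenated form converts nitric oxide to nitrate, and in roots they are known for limiting nitric oxide during nitrate supply and under low oxygen. Nitrate reductase can give rise to nitric oxide from nitrite, so that nitrate reduction and hemoglobins are linked as parts of a cycle between nitrate, nitrite and nitric oxide. In barley, monodehydroascorbate reductase was shown to return the oxidised hemoglobin to its reduced form.

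Hemoglobin 1 was an abundant transcript in both nitrogen-supplied conditions. Its level was 33.1 RPKM in -N, 301 RPKM after nitrate and 229 RPKM after ammonium. The nitrate value was 9.07 times the -N value (log2 ratio 3.18) and the ammonium value 6.91 times (log2 ratio 2.79). Both nitrogen sources thus stood far above -N, and the order was nitrate, ammonium, -N. By level, the gene held place 4781 among all identifiers in -N, place 443 after nitrate and place 583 after ammonium.

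Hemoglobin 2 was a scarce transcript in each condition. Its level was 0.313 RPKM in -N, 5.72 RPKM after nitrate and 0.830 RPKM after ammonium. The nitrate value was 18.3 times the -N value (log2 ratio 4.19), and the ammonium value was 2.65 times (log2 ratio 1.41). The order of the conditions was the one seen for hemoglobin 1, but only nitrate brought the gene above 1 RPKM. The -N and ammonium values lie so low that their ratio cannot be read without an error, and with 1 RPKM added to both values the log2 ratio of ammonium to -N came to 0.48. The ratio of nitrate to -N rests on the same low -N value, and its log2 came to 2.36 with that addition.

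**Figure D1:**
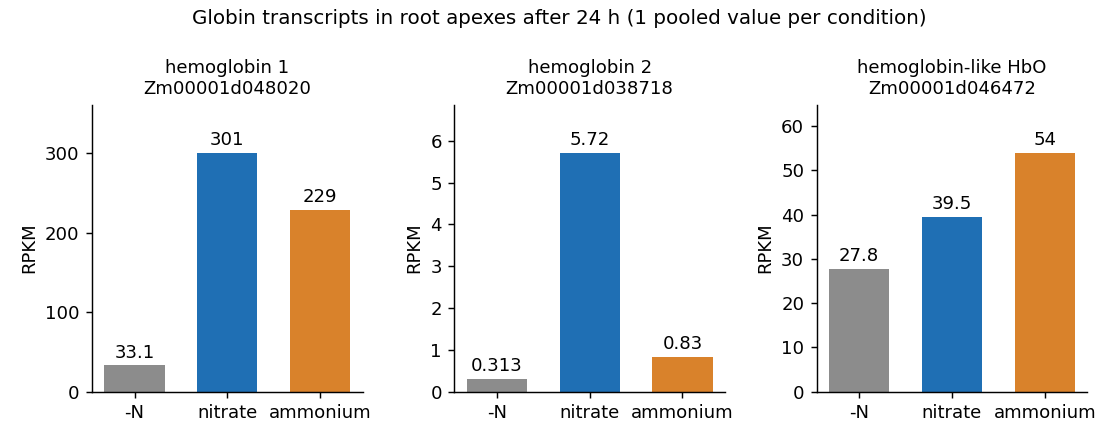
RPKM (vertical axes, each from 0 and each with its own scale) of hemoglobin 1, hemoglobin 2 and the hemoglobin-like protein HbO in root apexes after 24 h in -N (grey), nitrate (blue) and ammonium (orange). Each bar is a single estimate over the 3 replicates, without an error bar. Hemoglobin 1 is high after both nitrogen sources (301 and 229 RPKM), hemoglobin 2 has its highest value after nitrate (5.72 RPKM), and HbO has its highest value after ammonium (54.0 RPKM).

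A gene was called higher or lower where its log2 ratio was past 0.58, the fold threshold that the study uses, and where it had at least 1 RPKM in 1 of the conditions compared. In the comparison of nitrate with -N, 11.9% of the 21290 identifiers with enough RPKM were higher by this count, and both hemoglobins were among them. Of these identifiers, 138 (0.648%) had a higher log2 ratio than hemoglobin 1 and 110 (0.517%) a higher one than hemoglobin 2. In the comparison of ammonium with -N, 19.6% of 21373 identifiers were higher, and hemoglobin 1 was among them, with 307 identifiers (1.44%) at a higher ratio. Hemoglobin 2 did not reach 1 RPKM in that comparison and was not counted in it. The split of the ammonium calls depends on the scaling, with 63.3% of them higher as deposited and 53.1% higher when the columns were set to the same upper quartile. Since the study chose both genes by these comparisons, nothing is read from their place above the background, and the comparisons share the -N values, so that an error in -N moves both ratios of a gene together.

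The level that hemoglobin 1 reached was compared with the genes of equal or greater abundance, a comparison chosen after the values were seen. After nitrate, 442 other identifiers were listed at least as high as hemoglobin 1. Their median log2 ratio to -N was 0.07, 26 of them lay above 0.58, and the highest ratio among them was 1.61. This set is bounded by the level of hemoglobin 1 itself in the condition where that gene is high, and genes that are abundant in every condition fill it, so these values only describe the neighbours of hemoglobin 1 in level. After ammonium, 582 other identifiers were listed at least as high, 110 of them lay above 0.58, and 7 had a higher ratio than hemoglobin 1. In absolute terms, the difference of 267 RPKM between nitrate and -N placed hemoglobin 1 at position 22 of all identifiers, and the difference of 196 RPKM between ammonium and -N placed it at position 99.

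The nitrogen sources were also compared directly. For hemoglobin 1 the ammonium value was 0.761 times the nitrate value (log2 ratio -0.39), which is within the fold threshold, and 22.9% of 21660 identifiers had a lower ratio. For hemoglobin 2 it was 0.145 times the nitrate value (log2 ratio -2.78), and 142 of the 21660 identifiers (0.656%) had a lower ratio. In the background of this comparison, 14.1% of identifiers were lower after ammonium than after nitrate by the fold threshold. Hemoglobin 2 passed the minimum of 1 RPKM only through its nitrate value, and the study chose both genes on these libraries. Nothing is therefore read from their places among the identifiers. The difference of ammonium from -N in RPKM was 73.2% of that of nitrate for hemoglobin 1 and 9.56% for hemoglobin 2. Whether the nitrate and ammonium levels of either gene differ beyond the spread between replicates was not tested.

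The hemoglobins also differed from each other by orders of magnitude in level on the RPKM scale, which is per transcript length. Hemoglobin 1 was listed at 106 times hemoglobin 2 in -N, at 52.5 times after nitrate and at 276 times after ammonium. Hemoglobin 2 made up 0.937% of the summed RPKM of the pair in -N, 1.87% after nitrate and 0.362% after ammonium. Nitrate thus had 5.17 times the share of ammonium. With 1 RPKM added to both genes the shares were 3.70%, 2.18% and 0.790%, so that ammonium kept the lowest share but -N came before nitrate. The sum of both genes was 33.4 RPKM in -N, 306 RPKM after nitrate and 230 RPKM after ammonium, and it followed hemoglobin 1 almost entirely. The authors divided reads that map to several places between the similar genes. The part of such reads in the hemoglobin 2 values was not tested.

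**Figure D2:**
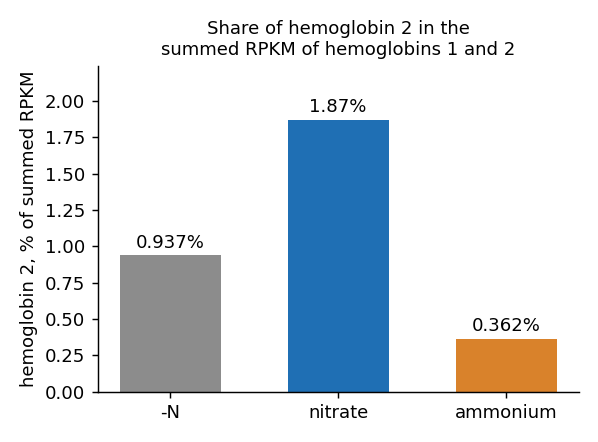
Hemoglobin 2 as a percentage of the summed RPKM of hemoglobins 1 and 2 (vertical axis, from 0) in -N, nitrate and ammonium, each bar a ratio of pooled values without an error bar. The share is 0.937% in -N, 1.87% after nitrate and 0.362% after ammonium.

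A further globin in the study's lists, Zm00001d046472, is described there as a hemoglobin-like protein HbO, a name used for truncated globins of bacteria. The study also chose it on these libraries. Its level was 27.8 RPKM in -N, 39.5 RPKM after nitrate and 54.0 RPKM after ammonium, so that ammonium and not nitrate gave the highest value. The log2 ratios to -N were 0.51 for nitrate, within the fold threshold, and 0.96 for ammonium. In -N hemoglobin 1 and HbO were at similar levels, with 1.19 times as much RPKM for hemoglobin 1, whereas hemoglobin 1 stood at 7.62 times HbO after nitrate and at 4.23 times after ammonium. No other gene was looked at as a globin, because the annotation used here does not pair the Zm00001d identifiers with names.

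The pattern of each gene was described by its pair of log2 ratios to -N, and likeness by the distance between pairs, over the 3 conditions and 21607 other identifiers above 0 RPKM throughout and with at least 1 RPKM somewhere. Hemoglobins 1 and 2 lay 1.71 log2 units apart. Counted in any direction, 170 identifiers were nearer to hemoglobin 1 than hemoglobin 2 was, and 63 were nearer to hemoglobin 2 than hemoglobin 1 was. Hemoglobin 2 was the farther from -N after nitrate, by 1.01 log2 units, and hemoglobin 1 after ammonium, by 1.38. With 1 RPKM added to all values, the log2 ratio of nitrate to -N was 2.36 for hemoglobin 2 and 3.14 for hemoglobin 1. The order of the hemoglobins after nitrate was thus not kept under that setting. HbO was more distant from both, at 3.24 from hemoglobin 1 and 3.71 from hemoglobin 2.

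The 5 identifiers nearest to hemoglobin 1 were Zm00001d035753 (distance 0.19), Zm00001d015153 (0.25), Zm00001d028718 (0.27), Zm00001d010649 (0.28) and Zm00001d040298 (0.30). All 5 were scarce, at 0.0972 to 0.336 RPKM in -N and at 1.03 to 3.35 RPKM after nitrate, so that they matched hemoglobin 1 in ratios but not in level. With a minimum of 10 RPKM in 1 condition none of them was left. Zm00001d029546 was then the nearest Zm00001d gene, with 15.2 RPKM in -N, 122 RPKM after nitrate and 78.3 RPKM after ammonium (log2 ratios 3.00 and 2.36, distance 0.46). This gene was named after its values were seen.

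The 5 identifiers nearest to hemoglobin 2 were Zm00001d049303 (distance 0.55), ENSRNA049456789 (0.56), Zm00001d007379 (0.57), Zm00001d025654 (0.62) and Zm00001d001936 (0.68). They lay farther from hemoglobin 2 than the neighbours of hemoglobin 1 did from that gene. The non-coding RNA identifier ENSRNA049456789 had 4.59 RPKM in -N, 61.4 RPKM after nitrate and 15.3 RPKM after ammonium. Zm00001d025654 had 2.67, 32.7 and 5.99 RPKM in the same order. These 2 were the nearest also with a minimum of 10 RPKM, and the other 3 were listed at 0.0415 to 0.151 RPKM in -N. A likeness over 3 conditions says nothing of a shared function or control.

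**Figure D3:**
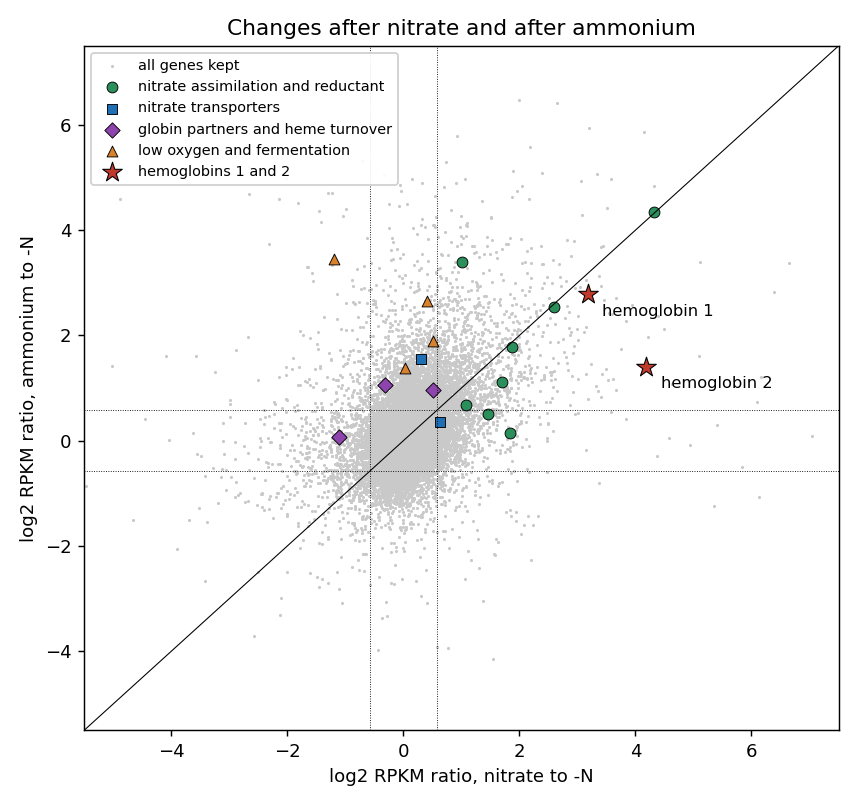
Log2 RPKM ratio of nitrate to -N (horizontal axis) against that of ammonium to -N (vertical axis) for 21608 identifiers (grey, 3 of them outside the axes), the listed genes (coloured symbols) and hemoglobins 1 and 2 (red stars). Dotted lines mark the fold threshold of 0.58 and the solid line equal ratios. Hemoglobin 1 (3.18 and 2.79) lies near the line of equal ratios and hemoglobin 2 (4.19 and 1.41) far below it, while the low-oxygen genes lie above it. The axes share the -N values.

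Nitrate reductase and nitrite reductase carry out the steps from nitrate to ammonium, and ferredoxins with their reductase supply electrons to nitrite reductase. A list of 8 genes was made for these steps, for the import of substrate into plastids and for glutamine synthetase, from genes that the study describes by name. It does not hold every ferredoxin-like gene that the study names. The study chose all 8 on these libraries, so that their direction is not independent evidence. After nitrate, 7 of the 8 genes had enough RPKM and all 7 were higher by the fold threshold, and after ammonium 6 of 8 were higher, against 11.9% and 19.6% of all identifiers. Zm00001d049995, Zm00001d018161 and Zm00001d021653 were below 1 RPKM in -N and passed the minimum only through their nitrogen-supplied values. The same held for Zm00001d017025 after ammonium. Such genes could not be counted as lower. The median over all 8 genes was a log2 ratio of 1.77 for nitrate and 1.44 for ammonium, against 0.04 and 0.02 over all identifiers tested. Hemoglobin 1 lay above both medians, and hemoglobin 2 above the first.

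The nitrite reductase gene Zm00001d018161 had 0.820 RPKM in -N, 16.3 RPKM after nitrate and 16.7 RPKM after ammonium (log2 ratios 4.32 and 4.35). The NADH nitrate reductase gene Zm00001d049995 stood at 0.291, 1.77 and 1.69 RPKM in these conditions (2.60 and 2.54), and the ferredoxin VI gene Zm00001d038291 had 10.1, 37.2 and 34.6 RPKM (1.88 and 1.77). The -N values of both reductase genes lie below 1 RPKM, so that their ratios to -N cannot be read without an error. In these 3 genes, as in hemoglobin 1, nitrate and ammonium differed by less than the fold threshold. The same held for the root ferredoxin-NADP reductase gene Zm00001d034345 (log2 ratio of ammonium to nitrate -0.40). It also held for most identifiers, since 3354 of 21660 were higher and 3056 lower after ammonium than after nitrate. The glucose-6-phosphate translocator gene Zm00001d021653, which carries substrate for reductant supply into plastids, was lower after ammonium than after nitrate past the threshold, with 0.996 RPKM in -N, 3.55 RPKM after nitrate and 1.11 RPKM after ammonium (log2 ratio of ammonium to nitrate -1.68). The chloroplastic glutamine synthetase gene Zm00001d026501, for the enzyme that assimilates ammonium, had the same order of conditions (log2 ratios to -N of 1.46 and 0.50, and of ammonium to nitrate -0.96). The ferredoxin gene Zm00001d021141 (1.70 and 1.12) and the root ferredoxin-NADP reductase gene Zm00001d034345 (1.08 and 0.68) were higher after both nitrogen sources. The former lay just past the threshold also between them (log2 ratio of ammonium to nitrate -0.59). With it, 3 of the 8 genes were lower after ammonium than after nitrate by the threshold, against 14.1% of all identifiers. This count rests on that narrow margin and was not computed under another scaling of the columns. A second nitrate reductase gene, Zm00001d017025, had its highest value after ammonium, with 0.109 RPKM in -N, 0.219 RPKM after nitrate and 1.15 RPKM after ammonium.

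Of the nitrate transporter genes, ZmNRT1a (Zm00001d029932) had log2 ratios of 0.62 after nitrate and 0.36 after ammonium, and ZmNRT1b (Zm00001d036941) of 0.30 and 1.56. Each passed the fold threshold after 1 nitrogen source only, and the ZmNRT1a value after nitrate was no longer past it when the columns were scaled to the same total or median ratio. Over all identifiers, 11.9% were higher after nitrate and 19.6% after ammonium. The study listed both genes because they passed its thresholds after at least 1 source in these libraries, so such a pass was given in advance. After nitrate both had lower ratios than either hemoglobin.

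Genes for a monodehydroascorbate reductase and for heme breakdown were set beside the hemoglobins as well. Whether this reductase acts on the hemoglobins was not tested. Zm00001d049954, a peroxisomal monodehydroascorbate reductase, had 106 RPKM in -N, 84.9 RPKM after nitrate and 220 RPKM after ammonium (log2 ratios -0.32 and 1.06). The heme oxygenase gene Zm00001d046493, whose product breaks down heme, had 12.6 RPKM in -N, 5.81 RPKM after nitrate and 13.2 RPKM after ammonium (-1.11 and 0.07). After nitrate, where both hemoglobins had their highest values, the heme oxygenase gene was at its lowest. The study lists this gene among those lowered by nitrate, and the monodehydroascorbate reductase gene among those raised by ammonium. These directions were thus fixed when the genes were picked and are only described here. Of the 3 genes in this list with HbO, none was higher and 1 was lower after nitrate, when 11.9% of all identifiers were higher and 5.46% lower, and 2 were higher after ammonium, when 19.6% of all identifiers were higher. Their median was a log2 ratio of -0.32 for nitrate and 0.96 for ammonium.

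Because hemoglobins are also known as genes of the low-oxygen response, the named genes of fermentation and low oxygen were set beside them. Pyruvate decarboxylase opens the path to ethanol, and RAP2-2 is an ethylene response factor that in Arabidopsis acts under low oxygen. The pyruvate decarboxylase gene Zm00001d028759 had 225 RPKM in -N, 230 RPKM after nitrate and 589 RPKM after ammonium. Zm00001d010588 stood at 73.7, 105 and 274 RPKM in these conditions, and Zm00001d008651 stood at 4.90, 2.14 and 53.3 RPKM. The RAP2-2 gene Zm00001d040651 had 17.1 RPKM in -N, 22.7 RPKM after nitrate and 108 RPKM after ammonium.

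By the fold threshold, ammonium had all 4 genes above -N (median log2 ratio 2.28), whereas nitrate had none above it and 1 below (median 0.22). The shares over all identifiers were 19.6% higher after ammonium and 11.9% higher and 5.46% lower after nitrate, and with 4 genes a count of none after nitrate is close to its share. In 3 of these genes, as in the hemoglobins, -N had the lowest value, but the highest value was the one after ammonium and not the one after nitrate. The study chose these genes for their change after ammonium, so the count is a description of the list. The part of low oxygen in the hemoglobin values was not tested.

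**Figure D4:**
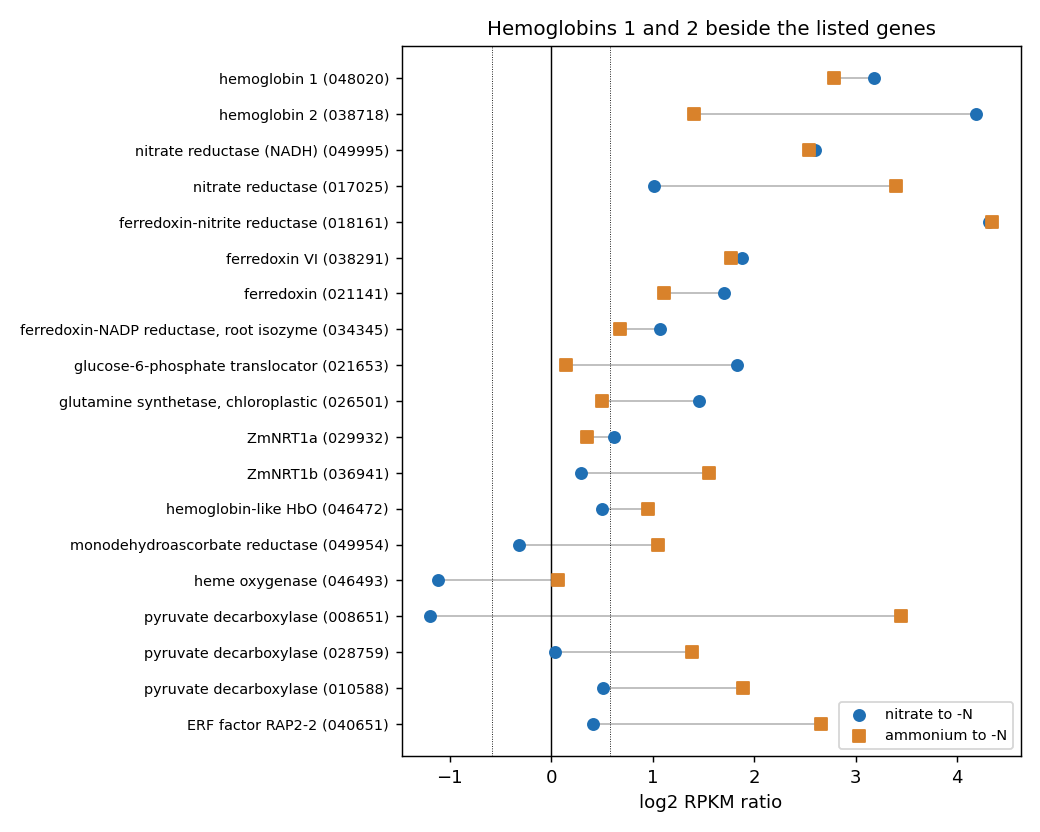
Log2 RPKM ratios to -N (horizontal axis) after nitrate (blue circles) and after ammonium (orange squares) for hemoglobins 1 and 2 and the 17 listed genes, with the last 6 digits of each Zm00001d identifier in brackets and dotted lines at the fold threshold of 0.58. Hemoglobin 1 has both symbols close together, as nitrite reductase and NADH nitrate reductase have, and hemoglobin 2 has them far apart with nitrate ahead. These reductase genes and hemoglobin 2 were below 1 RPKM in -N. The low-oxygen genes have ammonium ahead.

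The labelled tissue was checked on 4 marker genes that the study describes, all chosen on these libraries. The proliferating cell nuclear antigen gene Zm00001d018415, a marker of dividing cells, was listed at 78.3 RPKM in -N, 73.0 RPKM after nitrate and 39.1 RPKM after ammonium, and the Faciata 1-like gene Zm00001d012166 at 8.13, 6.89 and 3.52 RPKM. SOMBRERO (Zm00001d016119), which in Arabidopsis is expressed in the maturing root cap, was listed at 1.17 RPKM in -N, 4.77 RPKM after nitrate and 2.84 RPKM after ammonium. The root cap marker thus had the same order of conditions as the hemoglobins, and its part in their values was not tested. The gene for the iron-sulfur subunit of the cytochrome b6-f complex, Zm00001d053432, a marker of green tissue, was at 0.918 and 0.592 RPKM in -N and nitrate and at 13.3 RPKM after ammonium. None of the 4 markers was listed at 0.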

How the data were processed

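Of the study's 3 conditions with 3 libraries each, 1 table was used. Per the labels and the methods, the authors called bases with CASAVA 1.8, trimmed with Trimmomatic 0.33, mapped with TopHat2 2.0.13 to B73 RefGen_v4, removed alignments of the lowest mapping quality, and ran Cuffdiff of Cufflinks 2.2.1 with multi-read correction and quartile normalization. The deposited RPKM values are the authors' estimates over the replicates, 1 per condition. Quartile normalization lets other genes move a value a little, and the division of shared reads makes similar genes less certain.

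Log2 ratios were computed without a pseudocount. Genes with at least 1 RPKM in a compared condition were counted beyond a log2 ratio of 0.58. All 3 value columns were used. No test was made, because the table holds no values per replicate. Likeness was the Euclidean distance between pairs of log2 ratios to -N. Named are the hemoglobins, the listed genes, the markers and the 5 nearest identifiers per hemoglobin. The members and lists were chosen with earlier results of these data known. The gene table used here matched 0 Zm00001d identifiers, so positions and promoter motifs were not analysed here. Alternatives were 3 scalings, pseudocounts of 0.1 and 1, other minimums, gene models only, a threshold of 1 and another distance. The counting was tested on simulated data. Python 3.11.15, numpy 2.4.6, pandas 2.3.3 and matplotlib 3.10.9 were used.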

Additional observations from a re-analysis of the deposited data

How the results depend on the processing

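The 3 scalings moved the hemoglobin ratios by at most 0.08 (log2) and turned no direction. A pseudocount or another threshold cannot turn the direction of a ratio, so these settings say nothing of it. With a pseudocount of 1, the log2 ratios of hemoglobin 2 were 2.36 (nitrate to -N), 0.48 (ammonium to -N, no longer past the threshold) and -1.88 (ammonium to nitrate), and its share of the pair was 3.70% in -N and 0.790% after ammonium, where the added value is larger than the measured ones. The order of these shares is thus not kept under that setting. The counts over all genes moved with the filter and the threshold. Without a filter, 7089 genes were higher and 3931 lower after nitrate, 8534 and 5432 after ammonium, and 6822 and 6847 after ammonium against nitrate. With a log2 ratio beyond 1 these counts were 1116 and 541, 2129 and 591, and 1706 and 919. With a minimum of 5 RPKM, 1179 were higher and 633 lower after nitrate, 2747 higher after ammonium, and 1799 lower after ammonium against nitrate. Of the 5 genes nearest to hemoglobin 1, 0 were shared with a minimum of 10 RPKM and 2 with a pseudocount of 0.1, and of those nearest to hemoglobin 2, 2 and 3 were shared. With a log2 ratio beyond 1, 1 gene of heme turnover was higher after ammonium and 0 nitrate transporters after nitrate, which was also 0 when scaling by total or by median. In all, 147 of the 176 values computed under an alternative stayed within 1.5 times of the value as reported. The side of the threshold was checked only for the 36 hemoglobin ratios, of which 33 stayed within both limits. Counts of 0 that stayed at 0, and ratios that another threshold leaves unchanged, are among the 147. No paired analysis was possible because the table holds 1 estimate per condition and no values per replicate, and for the same reason no replicate could be left out. How many reads lie behind a value cannot be told from RPKM.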
